A study of Mus musculus with 6 samples.

Results

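Expression of 10 genes of glucose uptake and glycolysis, Slc2a1, Hk1, Hk2, Pfkl, Pfkp, Aldoa, Aldoc, Tpi1, Pgk1 and Ldha, was followed through 6 arrays of whole mouse cornea. They were 10 of 19938 genes that the array annotation pairs with a probe set of their own. A probe set counted for a gene only if the annotation gave it exactly 1 symbol, which left 13 probe sets for the 10 genes. For a gene with several, the brightest over all 6 arrays is reported. The corneas came from pups at postnatal day 3. In the DN-Clim group (n = 3) the mice carried K14-DN-Clim, a transgene for a dominant-negative form of CLIM, the cofactors that bind LIM-domain transcription regulators. The WT group (n = 3) were wild type littermates. The keratin 14 promoter is active in basal epithelial cells, whereas the corneas were taken whole and also held stroma and endothelium, so a change in the targeted cells is read together with the other layers. The labels name no strain and do not say whether a sample was 1 animal or a pool. Nothing says that replicates were separate animals, so p-values cover only the variation among these 6 samples, and part of it may be technical.

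Cells take up glucose through carriers such as the one encoded by Slc2a1 and trap it by phosphorylation with a hexokinase. Phosphofructokinase commits the sugar to glycolysis, aldolase splits it, and triose phosphate isomerase and phosphoglycerate kinase carry the products on to pyruvate with a gain of ATP. Lactate dehydrogenase turns pyruvate into lactate. The cornea has no blood vessels, its epithelium stores glycogen and relies strongly on glycolysis, and the neighbouring lens and neural retina are also known for turning much of their glucose into lactate.

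Values are log2(intensity + 16) of a probe set, and differences are DN-Clim minus WT on that scale. The level of a gene can be set against the same gene on another array but not against another gene, because probe sets differ in brightness. None of the 10 genes passed the threshold of an adjusted p of 0.05 in limma over the 23410 probe sets tested, and none had an unadjusted p under 0.05. Over all probe sets 3 passed (0.0128%), all lower in DN-Clim, and 1390 had an unadjusted p under 0.05 (5.94%). The differences of 8 of the 10 genes were above 0, with a median of 0.37, where the median over all probe sets was -0.04 and 42.8% of probe sets were above 0. In no gene did the 3 DN-Clim arrays lie apart from the 3 WT arrays, a separation found for 10.1% of probe sets. In such whole-tissue RNA a change in the number of cells of a type and a change in RNA per cell cannot be told apart.

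Slc2a1, the glucose carrier GLUT1 of epithelia and barrier tissues, read 10.19, 10.34 and 11.11 for replicates 1, 2 and 3 of WT. The same replicates of DN-Clim read 10.70, 11.39 and 9.94. Values of other genes follow the same order of replicates. The DN-Clim group held both the highest and the lowest array, and the groups overlapped fully. The means were 10.55 ± 0.49 (SD, n = 3) in WT and 10.68 ± 0.72 (SD, n = 3) in DN-Clim, a difference of 0.13 (SE 0.371, adjusted p = 0.999). The 95% interval of that difference ran from -0.71 to 0.96, so changes in either direction of up to this size were not resolved.

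Of the hexokinases, Hk2, the inducible form, was the member with the largest negative difference. It read 8.33, 8.11 and 7.98 on the WT arrays, against 7.41, 7.79 and 8.24 on those of DN-Clim. DN-Clim replicates 1 and 2 were below every WT array, and replicate 3 lay among them. The share of all probe sets with both replicates below WT was not counted. The Hk2 difference was -0.33 (SE 0.238, adjusted p = 0.999). Hk1, the widely expressed form, read 11.85, 12.06 and 12.27 on the WT arrays, against 11.88, 12.05 and 12.08 on those of DN-Clim, with a difference of -0.06 (SE 0.188, adjusted p = 0.999). The DN-Clim arrays all lay within the WT range.

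The Hk1 reading rests on the choice of probe set. The brighter probe set is paired with Hk1 through 1 sequence record, and the same record is listed by all 16 probe sets that the annotation pairs with both Hk1 and Rpl17, a ribosomal protein gene. Those 16 read between 11.94 and 12.98. Whether the brighter probe set measured Hk1 is therefore uncertain. The other Hk1 probe set, which lists 8 records, read 8.29, 8.13 and 7.82 on the WT arrays, against 7.93, 8.03 and 7.53 on those of DN-Clim. Its difference was -0.25 (SE 0.214, adjusted p = 0.999), and all 3 DN-Clim arrays were below its WT mean of 8.08. With this probe set in place of the brighter one, the median of the 10 genes was also 0.37.

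The phosphofructokinase subunits Pfkl and Pfkp had differences above 0 and did not pass. The muscle-type subunit Pfkm, outside the 10 genes and named after its values were seen, differed by 0.04 (SE 0.166, adjusted p = 0.999). Pfkl, the liver-type subunit, read 8.92, 8.71 and 8.68 on the WT arrays, against 9.28, 9.32 and 8.83 on those of DN-Clim. Replicates 1 and 2 of DN-Clim exceeded every WT array, and replicate 3 was inside the WT range. The Pfkl difference was 0.38 (SE 0.202, adjusted p = 0.929). Pfkp, the platelet-type subunit, read 8.51, 8.57 and 9.24 on the WT arrays, against 9.08, 10.18 and 8.66 on those of DN-Clim, so that DN-Clim replicate 2 alone stood above all WT arrays. Its difference was 0.53 (SE 0.375, adjusted p = 0.999), and 0.09 without that replicate.

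The aldolases showed the same sign. Aldoa, the widely expressed aldolase, read 11.06, 11.15 and 11.37 on the WT arrays, against 11.55, 11.89 and 11.24 on those of DN-Clim, with a difference of 0.37 (SE 0.215, adjusted p = 0.956). Aldoc, the aldolase of brain and retina, read 7.95, 7.97 and 8.72 on the WT arrays, against 9.43, 8.71 and 8.29 on those of DN-Clim. It was the one gene of the 10 with its highest value on DN-Clim replicate 1, and its difference of 0.60 (SE 0.321, adjusted p = 0.929) was the largest positive one with all arrays. Without DN-Clim replicate 1 the Aldoc difference was 0.287, below those of 6 other members. The 95% interval for Aldoc ran from -0.13 to 1.32.

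Tpi1, triose phosphate isomerase, read 10.51, 10.39 and 10.54 on the WT arrays, against 10.23, 11.02 and 10.59 on those of DN-Clim. Its WT arrays were the tightest of the 10 genes (SD 0.08, n = 3) and its DN-Clim arrays lay on both sides of them (SD 0.40, n = 3). The difference was 0.14 (SE 0.225, adjusted p = 0.999). Pgk1, phosphoglycerate kinase, read 11.43, 11.58 and 11.95 on the WT arrays, against 11.95, 12.44 and 11.80 on those of DN-Clim, with a difference of 0.41 (SE 0.232, adjusted p = 0.935). Of its 3 probe sets, 2 had identical values on all 6 arrays and the other was within 0.046 of them, so they are not separate readings, and signal of Pgk1 and of near-identical copies may be mixed in them.

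Ldha, the lactate dehydrogenase subunit that favours lactate formation, had the smallest adjusted p of the 10. It read 10.85, 10.96 and 11.41 on the WT arrays, against 11.57, 12.09 and 11.21 on those of DN-Clim. As for Pfkl, Aldoa and Pgk1, DN-Clim replicates 1 and 2 were above all WT arrays and replicate 3 lay within the WT range. That pattern of both replicates above WT held for 4 of the 10 genes and for 13.8% of all probe sets. For Pgk1 it rested on a near tie of DN-Clim replicate 1 (11.949) and WT replicate 3 (11.945). The Pgk1 probe set with differing values did not have it. The Ldha means were 11.07 ± 0.30 (SD, n = 3) in WT and 11.62 ± 0.44 (SD, n = 3) in DN-Clim. The difference was 0.55 (SE 0.261, adjusted p = 0.873), or 1.46-fold, with a 95% interval from -0.04 to 1.14.

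**Figure D1:**
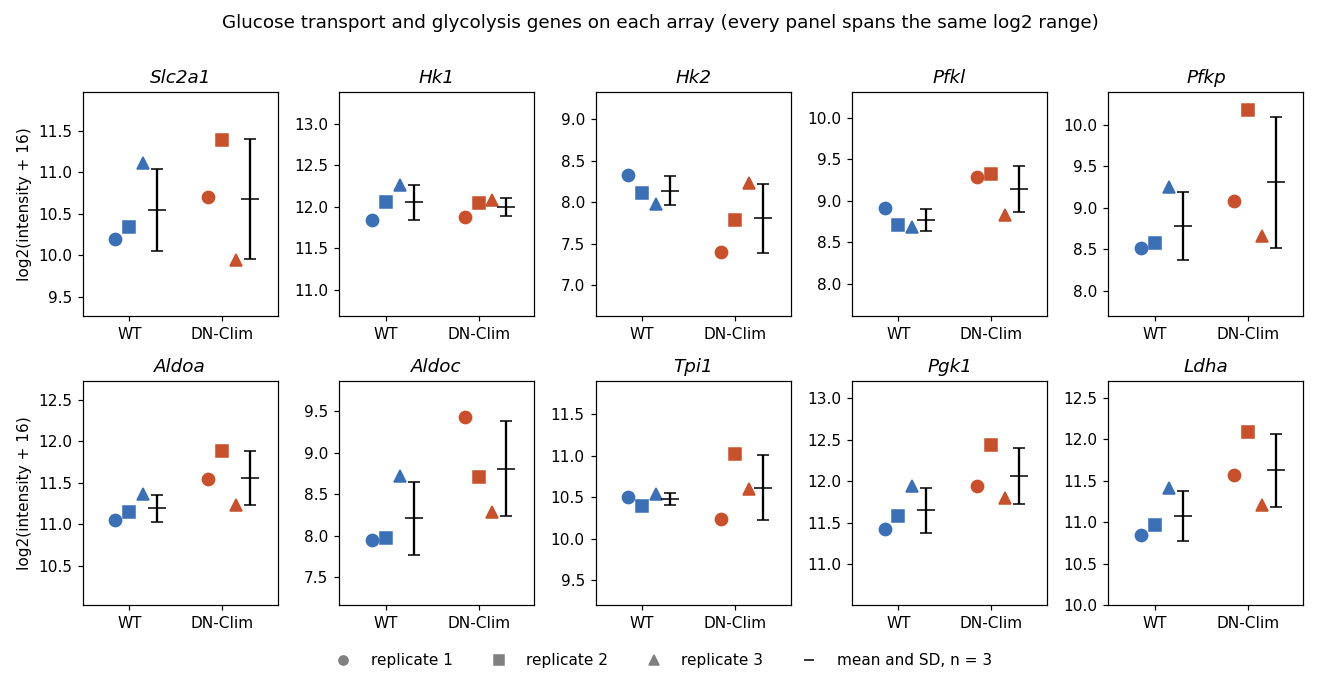
Each panel plots 1 gene, with log2(intensity + 16) on the vertical axis, WT arrays in blue and DN-Clim arrays in orange, marker shapes for replicates 1, 2 and 3, and the mean with its SD (n = 3) in black. The groups overlap in every panel, and for Pfkl, Aldoa, Pgk1 and Ldha replicates 1 and 2 of DN-Clim sit above the WT arrays while replicate 3 sits among them. For Pgk1, replicate 1 of DN-Clim is nearly level with replicate 3 of WT.

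The spread within the groups followed the arrays. WT replicate 3 was the highest of the WT arrays for 8 of the 10 genes, DN-Clim replicate 2 the highest of all arrays for 7, and DN-Clim replicate 3 lay within the WT range for 8. Relative to the WT mean, the median of the 10 genes was -0.22, -0.08 and 0.25 across the WT arrays. Across the DN-Clim arrays it was 0.30, 0.63 and 0.07. The medians of all probe sets on the same arrays lay between -0.16 and 0.06. The distance between WT replicates 1 and 3 was thus larger than the difference between the groups.

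Markers of neighbouring tissue also varied between the arrays, and some of the 10 genes followed the retina markers. Non-corneal tissue was dissected away and purity was checked by quantitative PCR, per the labels' protocols. The 14 measured retina markers, all above 0 in DN-Clim minus WT, had mean levels of 7.72, 8.05 and 8.56 on the WT arrays, against 9.0, 9.31 and 8.33 on those of DN-Clim. Aldoa, Pgk1 and Ldha ranked the 6 arrays in exactly the order of this retina mean, with WT replicate 1 lowest and DN-Clim replicate 2 highest. For Pgk1 this rested on a near tie, 11.945 on WT replicate 3 against 11.949 on DN-Clim replicate 1. The Pgk1 probe set with differing values had these arrays in the other order (11.925 against 11.911). How many of all probe sets share the retina order was not counted. Hk2 and Tpi1 were lowest on DN-Clim replicate 1, where the retina mean was 9.0. Pde6b, a photoreceptor phosphodiesterase subunit, read 7.19, 7.67 and 8.38 on the WT arrays, against 8.80, 10.31 and 8.19 on those of DN-Clim, and Six6, an eye field factor, differed by 1.32 (SE 0.488, adjusted p = 0.788). The 20 measured lens markers had means of 8.44, 8.50 and 9.02 on the WT arrays, against 11.6, 11.9 and 7.98 on those of DN-Clim, and none of the 10 genes followed that order exactly. Crybb3, a lens crystallin, read 8.90 to 9.38 in WT. Replicates 1 and 2 of DN-Clim read 14.24 and 13.98, and replicate 3 read 9.04. Lim2, a lens fibre membrane protein, differed by 1.48 (SE 0.482, adjusted p = 0.718). The lowest log2 value of any lens marker was 6.30 and of any retina marker 5.65, so none was listed at 0.

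Most markers of the cornea itself had the opposite sign, with 13 of 15 keratocyte markers and 12 of 13 epithelial markers below 0. Keratocyte markers (15 genes) averaged 11.3, 11.4 and 11.1 on the WT arrays, against 10.34, 10.01 and 11.30 on those of DN-Clim. Those of the corneal epithelium (13 measured) averaged 11.0, 10.9 and 10.7 on the WT arrays, against 10.5, 10.2 and 10.8 on those of DN-Clim. Col3a1, a stromal collagen, differed by -1.48, Krt14 by -0.63 and Cldn7, a tight junction claudin, by -0.71. Aldh1a1, a dehydrogenase placed on the keratocyte list, differed by 1.15, against the sign of most of that list. None of these genes passed with all arrays (adjusted p from 0.612 to 0.721). Without DN-Clim replicate 3, 2.06% of all probe sets passed. In that fit 11 of 15 keratocyte, 13 of 20 lens, 2 of 14 retina and 2 of 13 epithelial markers passed, in either direction. Among them were Col3a1 (-1.92, adjusted p = 0.0125), Aldh1a1 (1.44, adjusted p = 0.0226) and Krt14 (-0.81, adjusted p = 0.0471). The 15 muscle markers averaged 7.90, 7.95 and 8.25 on the WT arrays, against 8.30, 7.71 and 8.85 on those of DN-Clim. Above their WT mean were 9, 1 and 14 of the 15 on DN-Clim replicates 1, 2 and 3. Of all 23410 probe sets, 9345, 8750 and 13153 were. Muscle signal was thus highest on DN-Clim replicate 3. Mylpf, a fast-muscle myosin light chain, differed by 1.68 and Myh2, a myosin heavy chain, by -0.77. Only 3 red cell markers were measured (Alas2 at 0.06 and Epb42 at 0.12 among them). The part of these tissues in the values of the 10 genes was not tested.

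**Figure D2:**
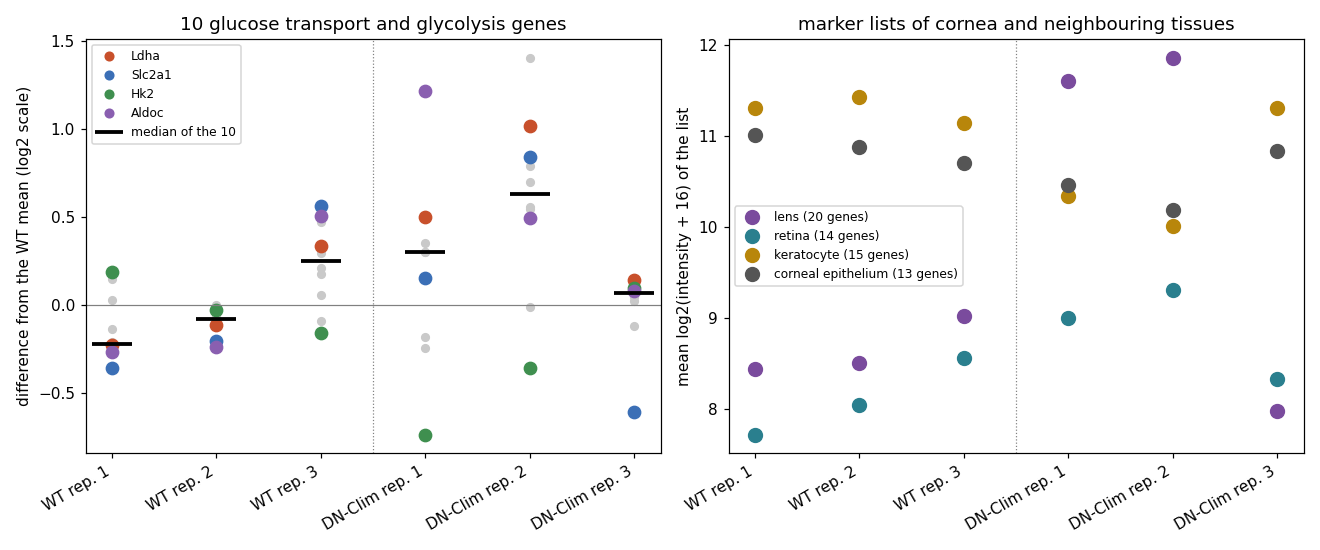
The left panel plots each of the 10 genes as its difference from the WT mean on every array (log2 scale; 4 genes coloured, the others grey, bars at the median of the 10), and the right panel the mean log2(intensity + 16) of 4 marker lists. The median of the 10 genes is highest, at 0.63, on DN-Clim replicate 2, where the retina mean is also highest at 9.31, and DN-Clim replicate 3 sits at 0.07.

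Leaving out DN-Clim replicate 3 widened the differences of the genes without carrying any past the threshold. With 2 DN-Clim arrays against 3 WT, Ldha differed by 0.76 (adjusted p = 0.140), Pfkl by 0.53 (adjusted p = 0.128), Aldoc by 0.86 (adjusted p = 0.174) and Hk2 by -0.55 (adjusted p = 0.172). In that fit 7 of the 10 genes had an unadjusted p under 0.05, where 20.6% of all probe sets did, and 2.06% of probe sets passed. DN-Clim replicate 3 alone against WT gave a median of 0.07 for the 10 genes, with Slc2a1 at -0.60, Ldha at 0.14 and Hk2 at 0.095, and again none passed, where 0.337% of probe sets did. In that fit the lone array was assumed to vary like WT. An unadjusted p under 0.05 was found for none of the 10 and for 19.5% of all. Leaving out DN-Clim replicate 2 instead gave a median of 0.145, with Ldha at 0.32, Pgk1 at 0.225, Aldoa at 0.20 and Pfkp at 0.09. Without DN-Clim replicate 1, Hk2 differed by -0.13.

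With the mean retina signal as a covariate, an alternative chosen after seeing the data, the median of the 10 genes was -0.04 and only Hk2 and Pfkl were above 0. Ldha then differed by -0.05 (SE 0.222), Pgk1 by -0.05, Aldoa by -0.04 and Pfkl by 0.22. Slc2a1 differed by -0.87 (SE 0.232, adjusted p = 0.536) and was the 1 gene of the 10 with an unadjusted p under 0.05, where 8.63% of all probe sets had one. Adjusting for the lens signal in the same way, the median was 0.105, Ldha differed by 0.21 (SE 0.229) and Slc2a1 by -0.47, and 6 of the 10 were above 0. None had an unadjusted p under 0.05 there, where 13.4% of all did. None of the 10 passed in either fit, where 0.0% and 0.0171% of all probe sets did. Both signals were highest on DN-Clim replicates 1 and 2, so these fits and the fit of replicate 3 alone are not separate checks. The lens signal set these arrays far apart from the rest. The retina signal also rose within WT, from 7.72 on replicate 1 to 8.56 on replicate 3, against 9.0 on DN-Clim replicate 1.

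Array weights gave the one setting in which members passed. In that fit Aldoc rose by 1.14 (adjusted p = 0.0174), Pfkl rose by 0.51 (adjusted p = 0.0374) and Hk2 fell by 0.64 (adjusted p = 0.0317), where 8.8% of all probe sets passed, 2.93% higher and 5.86% lower. With the replicate number as a block none of the 10 passed, where 0.0384% of probe sets did. The estimated weights were 3.06 for DN-Clim replicate 1, 0.385 for replicate 2 and 0.199 for replicate 3, so that fit set the group mostly by a single array.

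**Figure D3:**
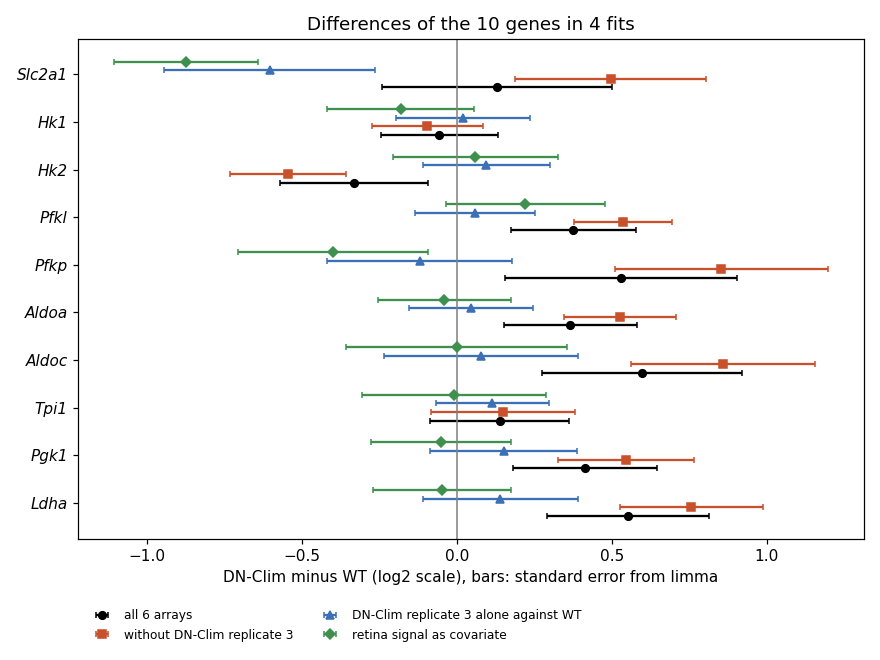
DN-Clim minus WT of each gene on the log2 scale, with the standard error from limma as bars, in fits of all 6 arrays, without DN-Clim replicate 3, with replicate 3 alone against WT, and with the retina signal as a covariate. Ldha goes from 0.55 with all arrays to 0.76 without replicate 3, 0.14 with replicate 3 alone and -0.05 with the retina covariate.

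Of the rest of the pathway, 22 of 28 listed genes had a probe set of their own, and none passed with all 6 arrays. Their differences had a median of 0.00, with 11 above 0 and 11 below, against 8 and 2 for the 10 genes above. Pgam2, the muscle form of phosphoglycerate mutase, read 7.23, 7.50 and 7.22 on the WT arrays, against 9.75, 10.05 and 8.07 on those of DN-Clim. All 3 DN-Clim arrays were above WT. The groups lay apart for 10.1% of all probe sets, and among the 22 genes for 2 higher and 2 lower in DN-Clim. The Pgam2 difference was 1.97 (SE 0.442, adjusted p = 0.512). Pgam2 rose by 2.58 without DN-Clim replicate 3 (SE 0.176, adjusted p = 0.00104). It was the one gene of the 22 that passed there, where 2.06% of all probe sets did. Its difference was 0.75 for replicate 3 alone, 1.11 with the lens covariate and 1.05 with the retina covariate, and it did not pass in these fits. With array weights, where 8.8% of all probe sets passed, Pgam2 passed. So did Pgk2, the testis form of phosphoglycerate kinase, at -0.48 in that fit (adjusted p = 0.0413). With all arrays unweighted Pgk2 differed by -0.34 (adjusted p = 0.915). Its values of 7.26 to 7.82 were dim, below the lowest array median of 7.95.

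None of the remaining isoforms and carriers passed with all arrays. Ldhb, the lactate dehydrogenase subunit of oxidative tissues, read 10.12, 10.26 and 10.49 on the WT arrays, against 10.60, 11.04 and 10.31 on those of DN-Clim, with a difference of 0.36 (SE 0.227). Pkm, pyruvate kinase, differed by 0.17 (SE 0.208) and Slc2a3, the neuronal glucose carrier GLUT3, by 0.21 (SE 0.234), with the highest Slc2a3 value on DN-Clim replicate 3 at 8.70. Without that replicate the Slc2a3 difference was 0.001. Bsg, the chaperone of lactate carriers, differed by -0.24, with all DN-Clim arrays below WT, where 10.1% of probe sets had groups apart in either direction. Slc16a7, a monocarboxylate carrier, differed by 0.38 and Pfkfb2, which sets the level of a phosphofructokinase activator, by -0.23. Gapdh was measured only by probe sets shared with other genes and is given no value.

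Branches that use or spare the same sugar were measured too. For the pentose phosphate pathway the median was -0.11 over 7 genes, with Rpia at -0.19 and Pgls at -0.17. Pyruvate entry and the citrate cycle had a median of 0.10 over 28 genes, with Sucla2, a succinyl-CoA ligase subunit, at 0.42 and Pdha1, a pyruvate dehydrogenase subunit, at -0.38. Glycogen and glucose synthesis had a median of -0.01 over 16 genes, with Gyg, the glycogen primer glycogenin, at -0.39 and Gys1, glycogen synthase, at 0.40. No gene of these lists passed (adjusted p from 0.867 to 0.999).

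Many glycolysis genes are targets of the hypoxia-inducible factor, which binds the short cores ACGTG and GCGTG. Other genes of the hypoxia response (24 measured) had a median difference of 0.09, with 15 above 0 and none past the threshold. Egln1, a prolyl hydroxylase that marks the factor for destruction, read 9.85, 9.95 and 9.98 on the WT arrays, against 10.23, 10.44 and 10.34 on those of DN-Clim. Its 3 DN-Clim arrays, replicate 3 included, were all above WT (difference 0.41, SE 0.171, adjusted p = 0.821). The groups lay apart in either direction for 10.1% of all probe sets, and for 2 of these 24 genes. P4ha2, a collagen prolyl hydroxylase, differed by -0.92 (SE 0.36, adjusted p = 0.803). Without DN-Clim replicate 3 the 1 gene of this list of 24 to pass was Ndrg1, a stress-response gene, which rose by 1.03 (adjusted p = 0.0495). In that fit 2.06% of all probe sets passed, so 1 call in such a list is not read as a result about the list. With all arrays Ndrg1 differed by 0.67 (adjusted p = 0.862), with replicate 3 alone by -0.04, with the lens covariate by 0.12 and with the retina covariate by -0.07.

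The bases just upstream of the genes are shown for the start sites that hold the core ACGTG in Slc2a1, Hk2, Pgk1 and Ldha. These genes share the core, and their estimated differences had both signs, though none passed with all arrays and the signs are not resolved. The genes and the search, made on both strands, were chosen after their values were seen. Each run is 250 bases ending at the base before the start annotated by RefSeq (GRCm38.p6), 5′ to 3′ on the gene's strand, with ACGTG in capitals, or CACGT where the match is on the opposite strand. The runs are chr4:119108495-119108744 (plus strand) for Slc2a1, chr6:82774455-82774704 (minus) for Hk2, chrX:106186850-106187099 (plus) for Pgk1 and chr7:46845554-46845803 (plus) for Ldha.
Slc2a1: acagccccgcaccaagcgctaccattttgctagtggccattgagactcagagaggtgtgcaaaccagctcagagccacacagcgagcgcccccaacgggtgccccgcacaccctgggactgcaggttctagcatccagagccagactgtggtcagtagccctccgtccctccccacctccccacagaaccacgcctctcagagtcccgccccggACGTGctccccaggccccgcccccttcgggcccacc
Hk2: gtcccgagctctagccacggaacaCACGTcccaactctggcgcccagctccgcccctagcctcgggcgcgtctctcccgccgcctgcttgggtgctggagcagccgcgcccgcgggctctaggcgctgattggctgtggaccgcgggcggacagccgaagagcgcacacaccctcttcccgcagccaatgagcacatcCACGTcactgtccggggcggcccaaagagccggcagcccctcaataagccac
Pgk1: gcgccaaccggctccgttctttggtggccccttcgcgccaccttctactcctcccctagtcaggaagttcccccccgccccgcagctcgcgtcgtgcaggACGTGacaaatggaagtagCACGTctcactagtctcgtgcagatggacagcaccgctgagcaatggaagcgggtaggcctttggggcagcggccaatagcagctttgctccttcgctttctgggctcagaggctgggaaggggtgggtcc
Ldha: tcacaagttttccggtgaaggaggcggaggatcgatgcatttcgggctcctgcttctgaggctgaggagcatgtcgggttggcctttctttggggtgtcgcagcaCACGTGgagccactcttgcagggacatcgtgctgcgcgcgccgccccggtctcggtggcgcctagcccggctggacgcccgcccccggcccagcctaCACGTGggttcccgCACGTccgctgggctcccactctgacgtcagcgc

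The Ldha run held 5 matches, because its copies of CACGTG read as ACGTG on both strands, and the nearest began at position -34, counted from the start site. Pgk1 and Hk2 held 2 each and Slc2a1 held 1. Over the 10 genes RefSeq gave 15 such windows, of which 6 held ACGTG, from 5 genes with Aldoa added to those shown. Among all 32851 windows of the same length 16.6% held it. Overlapping windows of Aldoa hold the same match, which is thus counted more than once. Counted by gene, 5 of the 10 held ACGTG, where 18.5% of all 27025 genes did. These shares are not like for like. The 10 genes had more windows per gene than all genes, and base composition was not matched. The related core GCGTG was in 7 of the 15 windows and in 28.2% of all. By gene it was in 6 of the 10 and in 30.9% of all. Tpi1 held neither core. The 5 genes with ACGTG differed by 0.13 (Slc2a1), -0.33 (Hk2), 0.37 (Aldoa), 0.41 (Pgk1) and 0.55 (Ldha). These estimates lay on both sides of 0, but none passed with all arrays, so no difference in response between these genes is shown. A match describes these letters only and is not evidence of binding.

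**Figure D4:**
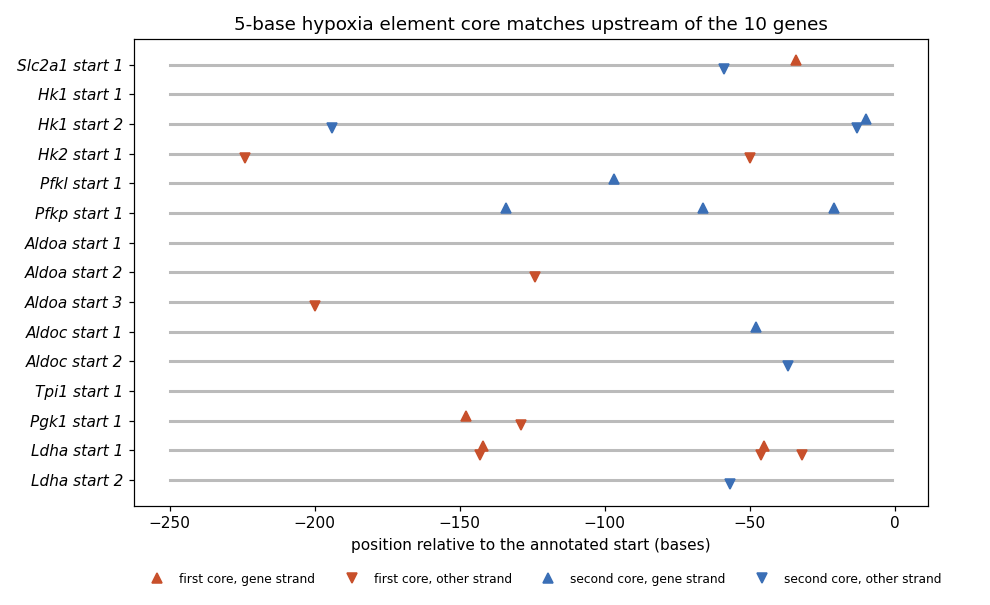
Positions, in bases before the annotated start, of the first core (ACGTG, orange) and the second core (GCGTG, blue) in the 15 upstream windows of the 10 genes, with triangles pointing up for the gene's strand and down for the other. Ldha has 5 matches of the first core and Tpi1 has none of either.

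The 10 genes, each centred on its own mean, had an average profile of -0.27, -0.24 and 0.10 on the WT arrays and 0.08, 0.46 and -0.14 on the DN-Clim arrays. Among 10813 other genes with above-median signal, the profiles most like it over the 6 arrays were those of Ppfia2 (Pearson r = 0.997), Ube2k (0.996), Lrp8 (0.995), Btf3l4 (0.995) and G3bp2 (0.995). Ppfia2, a synaptic scaffold protein, read 8.71, 8.75 and 9.55 on the WT arrays, against 9.57, 10.68 and 8.98 on those of DN-Clim. With 6 arrays and this many genes compared, such values are a description of these libraries only, and all points share the same arrays.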

How the data were processed

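Whole-cornea RNA was amplified with a NuGEN kit and labelled with biotin for Affymetrix arrays, per the labels' protocols. The authors deposited linear intensities, 1 per probe set and array, made with Affymetrix Expression Console 1.1 and PLIER, per the submitters' processing notes. Their background correction and scaling between arrays are not stated there. Array medians ran from 230.8 to 280.9. The number of arrays limits the precision.

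Values were taken as log2(intensity + 16), which understates differences of dim genes. The 23410 of 35557 probe sets with an annotated gene entered a limma fit (3.58.1, R 4.3.3, lmFit and eBayes) with p-values adjusted by Benjamini-Hochberg. The fit was run on simulated data with independent noise. That check does not cover variation shared by the probe sets of an array. Alternatives were other offsets, scalings, filters and priors, array weights, a replicate block, lens and retina covariates and leaving out arrays. The 12 gene lists, the members being 1 of them, were chosen with earlier results of these data known. Named were all members, the 6 other glycolysis genes with the smallest p plus Gapdh, Eno1, Pkm and Slc2a3 where measured, 2 genes with the smallest p of each other list, and the 5 most similar profiles. Ndrg1 and Pfkm were named after their values were seen. List symbols were matched by symbol, and 2 through gene identifiers (Ero1a, Epb42).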

Additional observations from a re-analysis of the deposited data

How the results depend on the processing

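None of the 10 genes passed in any setting but array weights (3 passed), and none of the 22 other glycolysis genes except with array weights (2) and without DN-Clim replicate 3 (0 to 1 over the fits that leave out an array). Over all probe sets the count was 1 with quantile normalization, 0 with all probe sets of the table, 5 with a trended robust prior, 2059 with array weights, 79 with DN-Clim replicate 3 alone, 0 with the retina covariate, and 0 to 483 when single arrays were left out, 483 without DN-Clim replicate 3. Over single members and settings, 159 values kept sign and call, 20 turned and 3 came to pass. The median difference of the members was 0.145 to 0.53 without single arrays, lowest without DN-Clim replicate 2, 0.068 with DN-Clim replicate 3 alone and -0.044 with the retina covariate.

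The sign turned for Slc2a1 with the lens (-0.47) and retina (-0.87) covariates and with DN-Clim replicate 3 alone (-0.60), and over the fits without single arrays it ran from -0.225 to 0.496, below 0 without DN-Clim replicate 2 and without WT replicate 1. Hk1 turned with replicate 3 alone (0.021) and ran from -0.162 to 0.048 without single arrays, above 0 without DN-Clim replicate 1 and without WT replicate 3. Hk2 turned with the retina covariate (0.06) and replicate 3 alone (0.095). Pfkp turned with the lens (-0.008) and retina (-0.40) covariates and replicate 3 alone (-0.12). Tpi1 turned with array weights (-0.12) and the retina covariate (-0.008), and ran from -0.065 to 0.329 without single arrays, below 0 without DN-Clim replicate 2. The retina covariate also turned Aldoa (-0.04), Aldoc (-0.000227), Pgk1 (-0.051), Ldha (-0.048) and Ldhb (-0.097). Pkm turned with the lens covariate (-0.046) and replicate 3 alone (-0.163), and Slc2a3 with array weights (-0.059). None of these turned values passed. The causes were not tested.

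The labels do not say whether same-numbered samples were paired. The deviations of same-numbered arrays correlated at 0.02, -0.21 and -0.44, and those of differently numbered arrays at -0.28 to 0.45. These correlations show no pairing but cannot exclude it, because differences between arrays that are unrelated to the numbering also enter them. With the replicate number as a block, 9 probe sets passed in place of 3 and none of the members. The array weights were estimated gene by gene, because limma's default estimate did not converge, a change made after that estimate was seen. The retina covariate and the other Hk1 probe set were added after seeing the data.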
